A study of Rattus norvegicus with 15 samples.

Results

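A set of 34 genes of fat cells and of fat synthesis was followed through 15 RNA-seq libraries of rat mesenteric artery and kidney cortex. The 34 were chosen by name from the 34357 rows of the deposited table that carry a gene identifier, and each matched 1 row. They fall into 19 genes that mark the fat cell (4 adipokines, 3 lipid droplet proteins, 5 genes of lipid uptake, 2 transporters, 2 lipases, 2 transcription factors and carbonic anhydrase 3) and 15 genes that make fat (2 transcription factors, 7 genes of fatty acid synthesis and 6 of triglyceride synthesis).

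The rats were of the Dahl salt-sensitive strain, an inbred line prone to hypertension when fed salt, and deletion and wild-type rats share that background. Deletion rats lack 30.4 kb of noncoding sequence (chr2:60825801-60856216 on rn7), beside Npr3, which encodes a receptor that clears natriuretic peptides, and the study set their tissues against those of wild-type rats. There were 4 deletion and 4 wild-type arteries, and 4 deletion and 3 wild-type kidneys, all labelled male. The age, the diet and the number of founder lines are not given in the sources used here. The labels do not state that libraries are from separate animals. The p-values here set differences or relations against the variation among libraries, and may not carry over to animals.

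Fat cells store triglyceride in a droplet coated by perilipins, take up fatty acids that lipoprotein lipase frees from lipoproteins, and release hormones such as adiponectin and leptin. New fatty acids are built from citrate by ATP-citrate lyase (Acly), acetyl-CoA carboxylase (Acaca) and fatty acid synthase (Fasn), with reducing power from malic enzyme (Me1), and are then lengthened by Elovl6 and desaturated by Scd. Insulin and glucose are known to drive this pathway through the transcription factors SREBP-1 (gene Srebf1) and ChREBP (gene Mlxipl), and small mesenteric arteries lie embedded in fat.

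The values are FPKM, fragments scaled by gene length and library size, with totals of 285679 to 433477 per artery and 376270 to 459847 per kidney. Read depth is unknown. The library labelled male kidney wild-type 3 stands apart: it held 81.1 FPKM of Xist, the transcript of the inactive X chromosome, against at most 1.30 in the other libraries, and Eif2s3y, a gene of the Y chromosome, was listed at 0 in it, against 24.1 to 39.6 FPKM elsewhere. Xist without Y-linked RNA is the pattern of female tissue, at odds with the male label, so the wild-type kidneys may mix sexes. Whether this bears on other values of kidney wild-type 3 was not tested. The kidney differences without that library are given beside the results below. Haemoglobin transcripts of 6 listed genes made up 26.3% of the summed FPKM in artery wild-type 4, and 1.30% to 9.92% in the other arteries.

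The arteries carried a full fat cell programme, and the kidneys carried very little of it. The 34 genes together made up 1.65% to 3.94% of the summed FPKM of an artery and 0.0784% to 0.112% of that of a kidney. Scd, the desaturase, was the most abundant member in artery, at 2271 FPKM ± 1118, against 0.487 ± 0.293 in kidney (SD, n = 8 arteries and 7 kidneys). Adiponectin (Adipoq) stood at 716 ± 184 FPKM in artery and 2.86 ± 0.672 in kidney, and Car3, a cytosolic carbonic anhydrase abundant in fat, at 1402 ± 452 in artery and 0.723 ± 0.485 in kidney (SD, n = 8 and 7). Since whole tissue was sequenced, more fat cells and more RNA per fat cell cannot be told apart in any of these values.

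Of the 34 members, limma called 32 higher in artery than in kidney at an adjusted p under 0.05, where 77.1% of all 16856 genes tested were called, 41.8% higher and 35.3% lower. All 34 fitted differences were above 0, against 54.3% of all genes, and at an unadjusted p under 0.05 the same number of members, 32, were higher, against 42.7% of all genes higher and 35.8% lower. The differences, in log2(FPKM + 0.5), were 10.99 for Scd, 10.25 for Car3, 9.02 for the lipogenic regulator Thrsp, 7.84 for the droplet coat protein Plin1, 7.73 for Adipoq, 5.50 for the fat cell transcription factor Pparg and 5.31 for Fasn. At the low end of the called members were Acly (1.66), the glycerol phosphate enzyme Gpd1 (1.13) and the glycerol channel Aqp7 (0.74). The median difference was 5.36 over the 19 markers and 2.47 over the 15 fat-making genes, against 0.109 over all genes. With median-of-ratios scaling the median of all genes was -0.0228, and 32 members were again called.

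Mlxipl and Me1 were not called. Mlxipl stood at 13.9 ± 6.97 FPKM in artery and 10.8 ± 2.57 in kidney, a difference of 0.30 (limma adjusted p = 0.192). Me1 stood at 88.4 ± 52.1 FPKM in artery and 55.1 ± 9.83 in kidney, a difference of 0.50 (limma adjusted p = 0.155). Me1 was called with quantile normalization, at 0.93, and without artery wild-type 2, at 0.70. Kidney libraries also held sizeable levels of Gpd1 (88.8 ± 27.6 FPKM), Aqp7 (46.4 ± 10.5 FPKM), Acsl1, which activates fatty acids (39.0 ± 5.24 FPKM), Acly (22.5 ± 2.89 FPKM) and Cebpa (22.4 ± 2.87 FPKM; SD, n = 7 each). Leptin (Lep) did not exceed 0.0374 FPKM in any kidney, and resistin (Retn) was listed at 0 in 6 of 7.

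**Figure D1:**
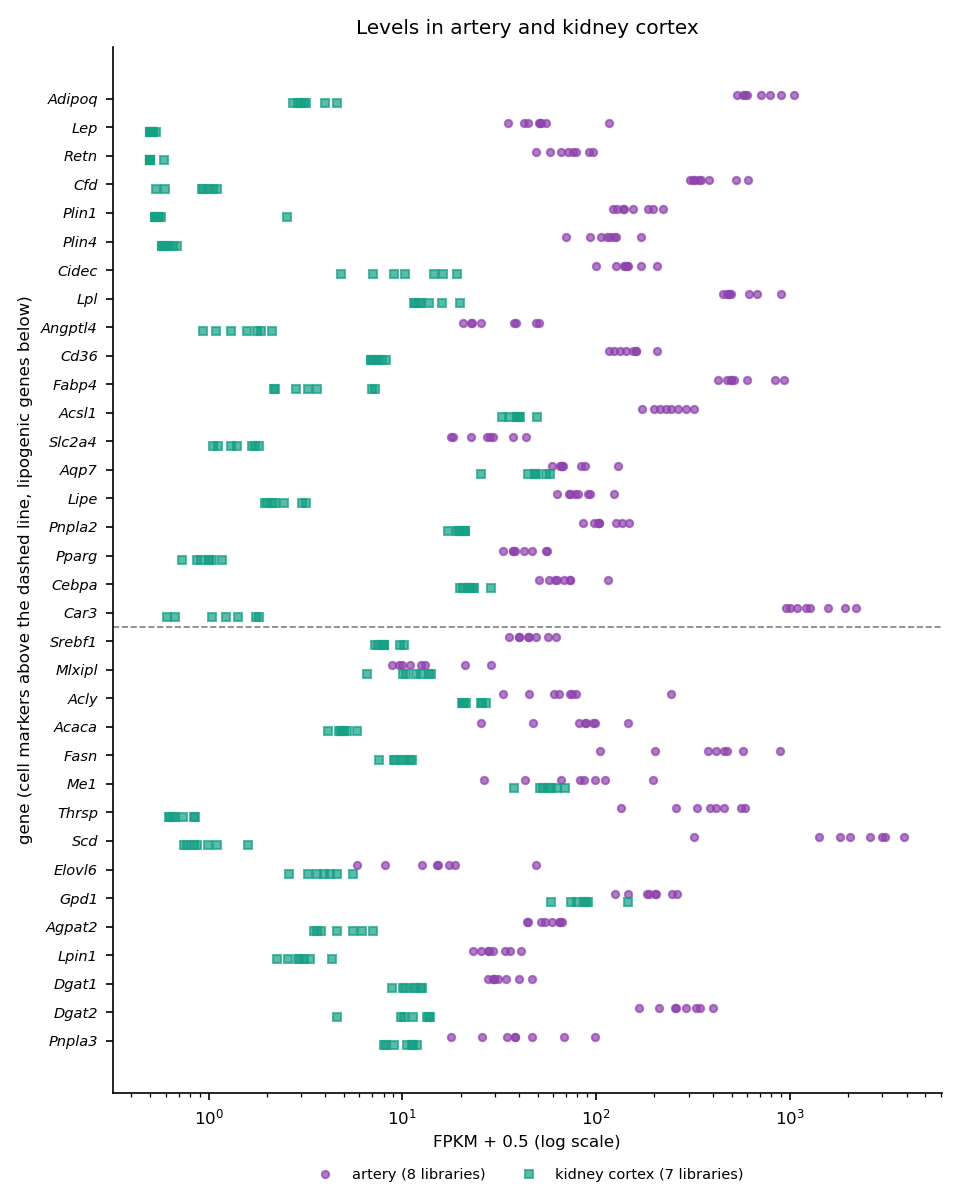
FPKM + 0.5 on a log axis for each of the 34 genes; circles are the 8 artery libraries and squares the 7 kidney libraries, with cell markers above the dashed line and fat-making genes below it. Artery and kidney values lie far apart for most genes, such as Adipoq and Scd, and mix for Mlxipl and Me1.

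Between deletion and wild-type arteries, no member passed the test across all genes. Limma called 0 of the 34, as it called 0 of all 16470 genes tested (0%), and the smallest adjusted p of a member was 0.893. At an unadjusted p under 0.05 there were 6 members, all higher in deletion arteries, where 3.72% of all genes were so higher and 1.52% lower. The fitted difference was above 0 for 32 of 34 members, against 59.7% of all genes. The median difference, in log2(FPKM + 0.5), was 0.90 over the 7 genes of fatty acid synthesis, 0.33 over the 6 of triglyceride synthesis and 0.18 over the 19 markers, against 0.0436 over all genes. With median-of-ratios scaling the median of all genes was -0.0018. Then 29 of 34 members were above 0 and 4 had an unadjusted p under 0.05. These 2 counts were 26 and 3 without deletion 2, and 31 and 3 without wild-type 4. Without wild-type 1 they were 33 and 11. The shares of all genes above 0 and at that p were not computed for these alternative fits.

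For nearly all fat cell markers the values of deletion and wild-type arteries overlapped. Adipoq was at 598, 1053, 896 and 573 FPKM in deletion 1 to 4 and at 787, 530, 584 and 707 in wild-type 1 to 4. Plin1 was at 139, 220, 185 and 137 FPKM in the deletion arteries and at 195, 155, 121 and 128 in the wild-type arteries. For both genes deletion 2 was the highest library and the groups overlapped, with differences of 0.23 (SE 0.24) for Adipoq and 0.18 (SE 0.21) for Plin1.

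The fatty acid transporter Cd36 was at 123, 205, 160 and 116 FPKM in deletion and at 143, 132, 160 and 154 in wild-type arteries, and the groups overlapped, with a difference of 0.004. Its sign turned under other scalings and with some libraries left out. Pparg, which drives fat cell differentiation, was at 37.6, 54.4, 55.5 and 42.1 FPKM in deletion and at 46.0, 32.7, 36.9 and 36.5 in wild-type arteries; the groups overlapped and the difference was 0.31 (limma unadjusted p = 0.0799, adjusted p = 0.893). Lep was at 50.7, 116, 50.5 and 54.7 FPKM in deletion and at 42.1, 51.6, 44.2 and 34.7 in wild-type arteries. Deletion 2 was far above the other arteries, and wild-type 2 lay within the deletion range. Its difference was 0.57 (limma unadjusted p = 0.0561, adjusted p = 0.893), and 0.28 without deletion 2.

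Of the 19 markers, 14 had their highest value in deletion 2, which held the highest value of 18.2% of all genes. The mean log2(FPKM + 0.5) of the 19 markers was 6.94, 7.71, 7.39 and 6.93 in deletion 1 to 4 and 7.25, 7.001, 6.96 and 6.92 in wild-type 1 to 4. Deletion 2 and 3 were highest and the other deletion arteries lay among or near the wild-type ones. The median difference of the markers was 0.07 without deletion 2, 0.32 without deletion 1, 0.35 without deletion 4, 0.32 without wild-type 1 and 0.09 with array weights.

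Slc2a4, the insulin-responsive glucose transporter GLUT4, was the sole marker at an unadjusted p under 0.05. It was at 42.7, 36.5, 28.7 and 27.7 FPKM in deletion arteries and at 22.0, 17.8, 26.9 and 17.2 in wild-type arteries. Every deletion artery was above every wild-type artery, which held for Slc2a4 and Srebf1 among the members and for 2.3% of all genes; the reverse held for 0 members and 0.953% of all genes. The difference was 0.68 (SE 0.18, limma unadjusted p = 0.0038, adjusted p = 0.893; exact permutation p = 0.0286 on FPKM, the smallest that 70 arrangements allow), the smallest limma p among the members. With median-of-ratios scaling the permutation p was 0.0571.

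Both transcription factors of fat synthesis were fitted higher. Srebf1 was at 55.7, 61.8, 48.5 and 44.4 FPKM in deletion and at 39.6, 43.8, 39.3 and 34.9 in wild-type arteries. The groups did not overlap, though deletion 4 and wild-type 2 were close, and the difference was 0.41 (SE 0.13, limma unadjusted p = 0.0097, adjusted p = 0.893; exact permutation p = 0.0286). Mlxipl was at 28.3, 20.4, 9.13 and 12.6 FPKM in deletion and at 12.03, 10.5, 9.48 and 8.38 in wild-type arteries. Deletion 1 and 2 were high and deletion 3 lay among the wild-type values; the difference was 0.66 (SE 0.30, limma unadjusted p = 0.0532, adjusted p = 0.893) and 0.40 without deletion 1.

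**Figure D2:**
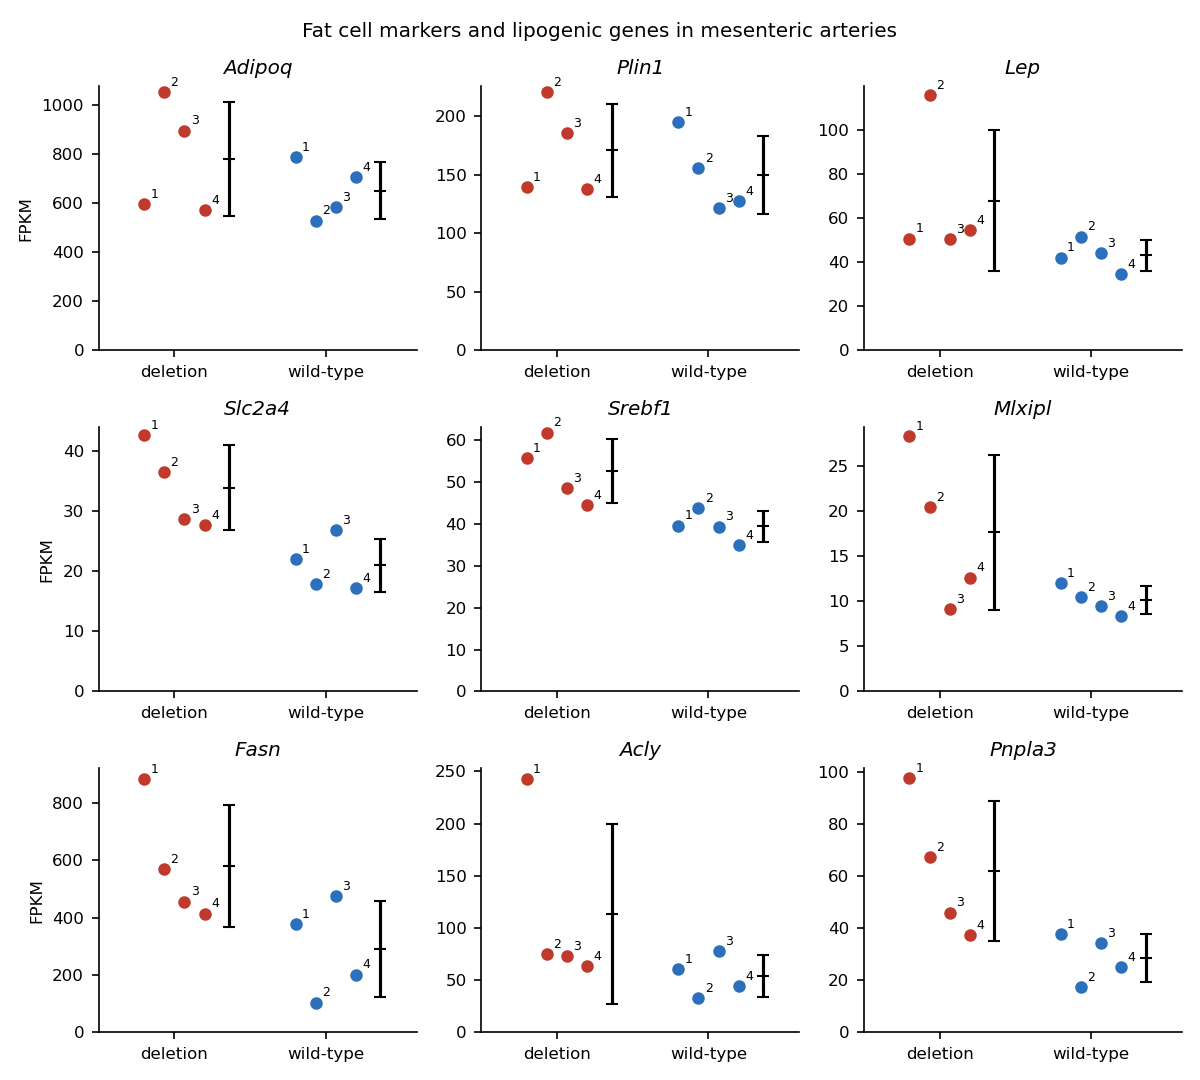
FPKM of 9 members in each mesenteric artery, deletion left and wild-type right; numbers are the libraries and the black bars the mean ± SD (n = 4 each). Slc2a4 and Srebf1 do not overlap between the groups, Adipoq and Plin1 overlap widely, and deletion 1 stands out in Acly at 242 FPKM.

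The 7 genes of fatty acid synthesis had fitted differences between 0.79 (Thrsp) and 1.16 (Fasn) and a wide spread between arteries. Fasn was at 884, 570, 457 and 415 FPKM in deletion and at 378, 104, 475 and 202 in wild-type arteries. Wild-type 3 lay within the deletion range and the difference was 1.16 (SE 0.45, limma unadjusted p = 0.0282, adjusted p = 0.893; exact permutation p = 0.0857), and 0.75 without wild-type 2. Acaca, which commits acetyl-CoA to fat, was at 146, 96.1, 97.8 and 80.8 FPKM in deletion and at 86.8, 25.0, 88.3 and 46.5 in wild-type arteries, with a difference of 0.90 (limma unadjusted p = 0.0399, adjusted p = 0.893). It was 0.53 without wild-type 2.

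Scd was at 3892, 2592, 2993 and 1819 FPKM in deletion and at 3104, 321, 2036 and 1410 in wild-type arteries. Wild-type 2 was far below the rest and wild-type 1 was above 3 deletion arteries; the difference was 1.07 (SE 0.62, limma unadjusted p = 0.116, adjusted p = 0.893) and 0.39 without wild-type 2. Acly was at 242, 74.9, 73.0 and 63.8 FPKM in deletion and at 60.3, 32.6, 78.2 and 44.6 in wild-type arteries. Deletion 1 alone was high, and the difference of 0.90 was 0.46 without it. Me1, Elovl6 and Thrsp had differences of 0.82, 0.90 and 0.79, and their groups overlapped too.

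All 7 genes of fatty acid synthesis had their highest value in deletion 1 and their lowest in wild-type 2, a pair of extremes that 0.589% of all genes shared. Deletion 1 held the highest value of 11.2% of all genes and wild-type 2 the lowest of 6.16%. The highest value was 4.35 times the lowest for Thrsp, 5.83 for Acaca, 7.44 for Acly, 7.64 for Me1, 8.49 for Fasn, 9.10 for Elovl6 and 12.1 for Scd. For the 19 markers this ratio ran only from 1.70 for Pparg to 3.34 for Lep. Of the 6 triglyceride synthesis genes Pnpla3 had the same pair of extremes, with a ratio of 5.62, and the other 5 did not. In these same 2 libraries Adipoq stood at 598 FPKM in deletion 1 and 530 in wild-type 2, Slc2a4 at 42.7 in deletion 1 and 17.8 in wild-type 2, and Angptl4 at 22.2 in deletion 1 and 48.4 in wild-type 2.

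The ratio of Fasn to Plin1, both in FPKM, was 6.35, 2.59, 2.46 and 3.02 in deletion 1 to 4 and 1.94, 0.671, 3.92 and 1.58 in wild-type 1 to 4. Wild-type 3 had the second highest ratio and the groups overlapped. The median difference of the 15 fat-making genes, 0.79, was 0.47 without deletion 1 and 0.45 without wild-type 2, and reached 0.98 without wild-type 1.

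**Figure D3:**
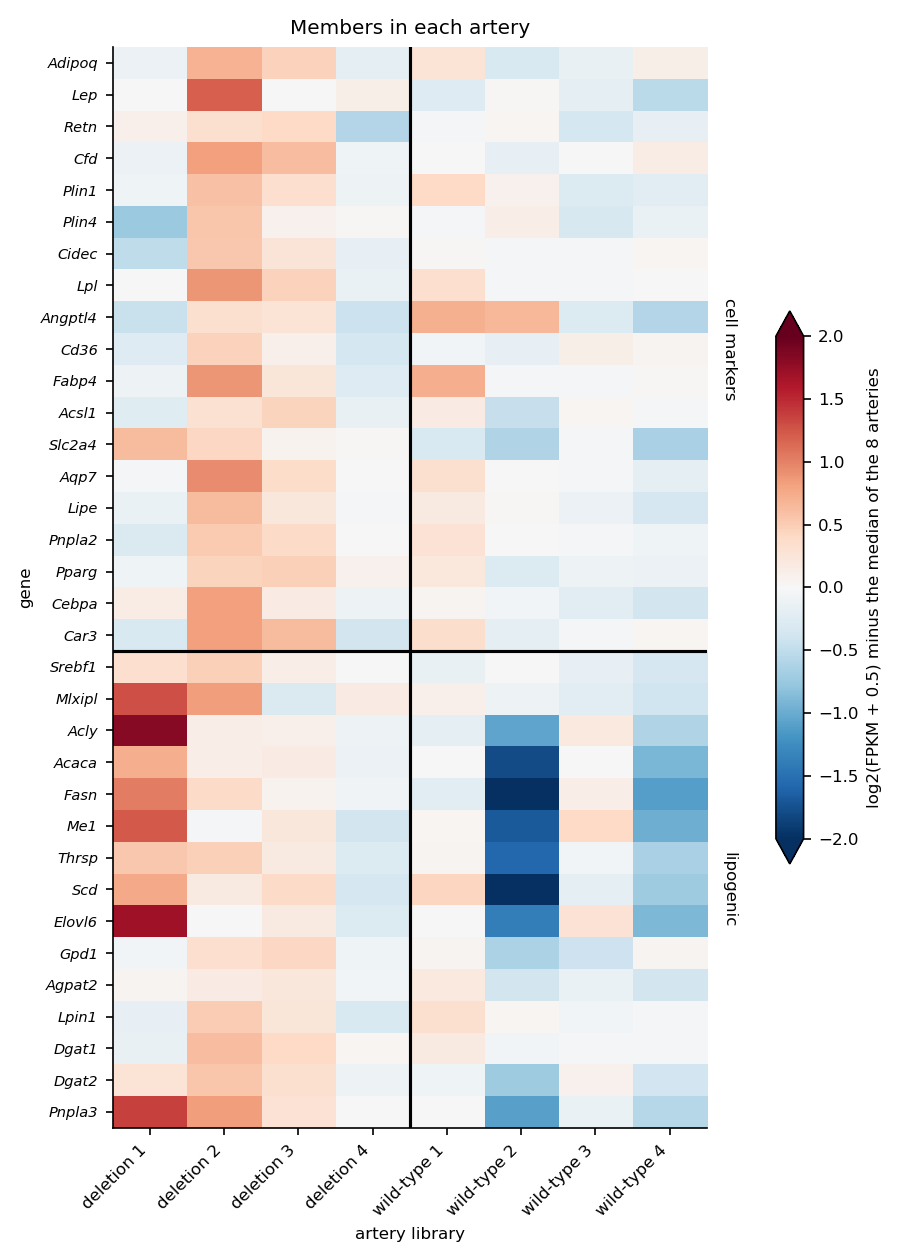
Each square is log2(FPKM + 0.5) of a member in an artery minus the median of that member over the 8 arteries, with deletion arteries left of the line and wild-type arteries right; the colour scale stops at 2 in either direction. Fatty acid synthesis genes are darkest red in deletion 1 and darkest blue in wild-type 2, while most markers are reddest in deletion 2.

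In triglyceride synthesis, the lipid droplet protein Pnpla3, a target of SREBP-1, was at 97.7, 67.5, 46.1 and 37.4 FPKM in deletion and at 37.8, 17.4, 34.3 and 25.2 in wild-type arteries. Only deletion 4 and wild-type 1 crossed, and the difference was 1.07 (SE 0.32, limma unadjusted p = 0.0081, adjusted p = 0.893; exact permutation p = 0.0571). Dgat2, which adds the last fatty acid to a triglyceride, was at 329, 400, 342 and 255 FPKM in deletion and at 257, 166, 289 and 210 in wild-type arteries, with a difference of 0.53 (limma unadjusted p = 0.0280, adjusted p = 0.893). Its groups overlapped through deletion 4. The other 4 members of this group had groups that overlapped, and Lpin1, a phosphatidate phosphatase, had a difference of -0.0004.

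With the mean of 5 defining fat cell markers (Adipoq, Plin1, Cidec, Lipe and Pparg) as a covariate, limma again called 0 of 34. The median difference was then -0.006 over the markers, a fall partly built in since they include those 5, and 0.71 over the fat-making genes. Of the fat-making genes Gpd1 went from 0.39 to 0.24, Dgat1 from 0.22 to 0.04 and Lpin1 from -0.0004 to -0.20. Fasn stood at 1.17, Acly at 1.11, Pnpla3 at 1.05, Slc2a4 at 0.69 and Srebf1 at 0.36 in this fit, while Adipoq stood at -0.005 and Angptl4, an inhibitor of lipoprotein lipase, at -0.47. Without the covariate Angptl4 stood at -0.20, and its groups overlapped.

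**Figure D4:**
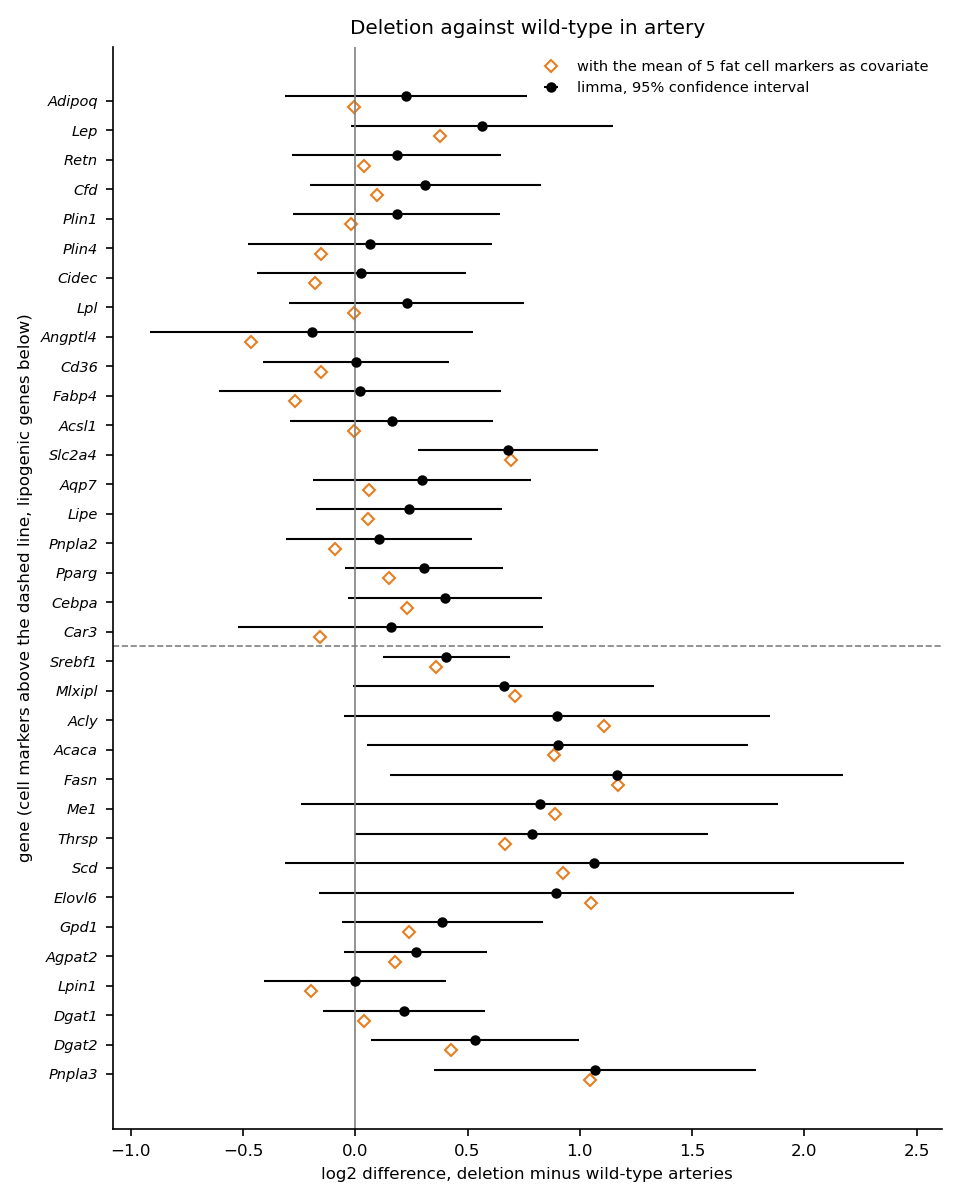
Fitted log2 difference, deletion minus wild-type arteries, of the 34 members: black circles with 95% confidence intervals from limma, and orange diamonds from the fit with the 5-marker covariate. Most markers, which include the 5 of the covariate, move toward 0 or below, but the marker Slc2a4 stays near 0.69. Of the fat-making genes Fasn and Pnpla3 stay near 1.17 and 1.05, while Dgat1 falls to 0.04 and Lpin1 to -0.20.

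Across the 8 arteries the fatty acid synthesis genes varied together, and most markers were not called with them. Of 33 relations with Fasn on log2(FPKM + 0.5), 9 had a Benjamini-Hochberg adjusted Pearson p under 0.05 by exact permutation, and 1 a Spearman p. Adjustment was over these 33 only. The share of all genes so related to Fasn was not computed, so the 9 cannot be set against it. Acaca had r = 0.989 and rho = 0.905 (exact permutation p = 0.0004 and 0.0046, adjusted p = 0.0065 and 0.0502, n = 8), and r was 0.937 without the 2 arteries farthest from its median. The 6 other genes of fatty acid synthesis had r from 0.882 (Acly) to 0.989 and, without the 2 farthest arteries, from 0.655 (Scd) to 0.962 (Acly). Acly was the gene called by Spearman, at rho = 0.976 (exact permutation p = 0.0004, adjusted p = 0.0131, n = 8).

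The 19 markers had a median r of 0.253 with Fasn, with Adipoq at 0.332 and Plin1 at 0.141. Slc2a4 alone among them was called, at r = 0.908 and rho = 0.905 (exact permutation p = 0.0012 and 0.0046, adjusted p = 0.0097 and 0.0502, n = 8), and r was 0.868 without the 2 farthest arteries. Pnpla3 (r = 0.934) and Dgat2 (r = 0.897) were called as well. Srebf1 (r = 0.560) and Mlxipl (r = 0.638) were not, at adjusted exact permutation p = 0.393 and 0.257 (n = 8), and r was 0.182 and 0.157 without the 2 farthest arteries. As deviations from the mean of their own group, r with Fasn was 0.818 to 0.983 for fatty acid synthesis, 0.847 for Slc2a4 and 0.0786 for Srebf1. Without artery wild-type 2 or without artery wild-type 4, 4 of the 33 relations were called.

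**Figure D5:**
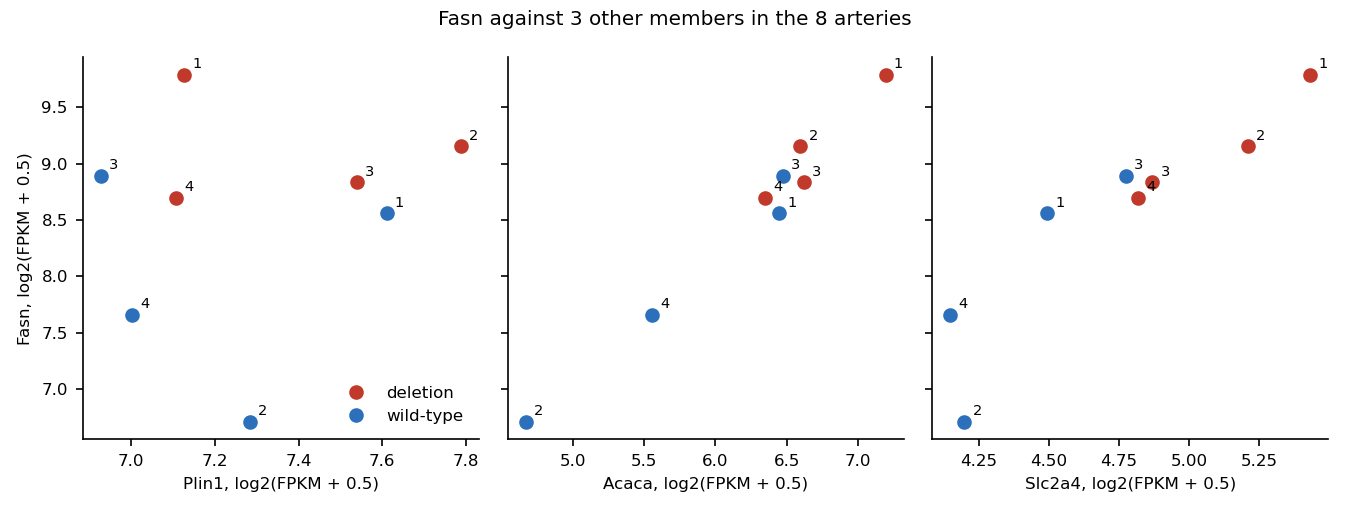
Log2(FPKM + 0.5) of Fasn on the vertical axis against Plin1, Acaca and Slc2a4, 1 point per artery, red for deletion and blue for wild-type, numbered by library. The points follow a line for Acaca (r = 0.989) and Slc2a4 (r = 0.908) and scatter for Plin1 (r = 0.141).

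Promoter windows are given as examples for some genes that varied together and for a marker not called with Fasn. RefSeq windows of 250 bases before the start (GRCr8) were found for 22 of the 34 members. Those of Acly (chr10:85963632-85963881, minus strand), Thrsp (chr1:161138965-161139214, minus strand) and Pnpla3 (chr7:117173278-117173527, plus strand) are given with that of Adipoq (chr11:91240170-91240419, minus strand), each 5′ to 3′ in the direction of the gene. Capitals mark the CCAAT box (CCAAT, or ATTGG on the other strand) and the GC box (GGGCGG, or CCGCCC on the other strand).
Acly: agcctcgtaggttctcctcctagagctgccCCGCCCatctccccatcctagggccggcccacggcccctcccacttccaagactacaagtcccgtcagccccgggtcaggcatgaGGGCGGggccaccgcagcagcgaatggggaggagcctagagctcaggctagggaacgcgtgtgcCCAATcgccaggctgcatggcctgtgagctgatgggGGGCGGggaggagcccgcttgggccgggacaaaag
Thrsp: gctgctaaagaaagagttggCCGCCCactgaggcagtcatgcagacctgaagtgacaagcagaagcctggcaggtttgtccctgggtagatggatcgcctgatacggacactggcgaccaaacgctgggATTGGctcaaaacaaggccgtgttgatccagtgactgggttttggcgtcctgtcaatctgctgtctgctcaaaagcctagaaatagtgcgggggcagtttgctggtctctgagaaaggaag
Pnpla3: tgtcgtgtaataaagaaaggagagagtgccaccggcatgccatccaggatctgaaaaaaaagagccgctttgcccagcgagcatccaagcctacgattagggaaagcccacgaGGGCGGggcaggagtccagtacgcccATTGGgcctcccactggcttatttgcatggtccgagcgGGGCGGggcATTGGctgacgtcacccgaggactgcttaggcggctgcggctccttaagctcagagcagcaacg
Adipoq: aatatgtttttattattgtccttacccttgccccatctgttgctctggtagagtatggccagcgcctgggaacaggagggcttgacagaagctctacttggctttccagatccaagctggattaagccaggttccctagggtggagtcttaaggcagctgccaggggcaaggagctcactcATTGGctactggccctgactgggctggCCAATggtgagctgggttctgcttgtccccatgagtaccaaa
The 22 members had 29 starts, and a member counted for a motif if any of its windows held it. The shares of all genes are per distinct window, which makes the member counts higher by comparison. The CCAAT box was present in 6 of 9 fat-making genes and 5 of 13 markers with a window, against 11351 of the 33360 windows of all genes. The GC box was present in 6 of 9 fat-making genes and 8 of 13 markers, against 30.5% of all windows, and the TATA box (TATAAA) in 0 of 9 and 3 of 13, against 12.9%. Windows not printed varied within both sets. That of Scd held neither the CCAAT nor the GC box and that of Me1 the GC box alone, though both genes varied with Fasn. That of Lep, a marker not called with Fasn, held both boxes. The E-box CACGTG, the sterol element TCACNCCAC and the direct repeat of AGGTCA spaced by 1 base, searched on both strands as the rest, were found in none of the 22, against 5.61%, 0.977% and 0.051% of all windows. No searched motif contains another, though neighbouring GC boxes can share bases.

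In the kidneys, 26 of the 34 members had a mean of at least 0.5 FPKM and were tested; Lep, Retn, Cfd, Plin1, Plin4, Pparg, Thrsp and Scd were below it. Limma called 0 of 26, as it called 0 of all 15444 genes (0%), and at an unadjusted p under 0.05 it had Car3 higher and Fabp4 lower in deletion kidneys, where 0.939% of all genes were so higher and 0.466% lower. Without wild-type 3, Car3 was the sole member at an unadjusted p under 0.05. Such shares of all genes were not computed for the alternative kidney fits. The fitted difference was above 0 for 19 of 26 members, against 60.2% of all genes, for 16 of 27 tested without wild-type 3, and for 11 of 26 with median-of-ratios scaling, which also turned the medians of the markers (0.03) and the fat-making genes (0.06) to -0.04 and -0.02.

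Car3 was at 0.924, 1.33, 1.26 and 0.728 FPKM in deletion kidneys and at 0.112, 0.538 and 0.167 in wild-type kidneys. Every deletion kidney was above every wild-type kidney, which held for Car3 among the members and for 1.54% of all genes, at levels of about 1 FPKM or less. The difference was 1.04 (SE 0.26, limma unadjusted p = 0.0026, adjusted p = 0.999, and exact permutation p = 0.0286, the smallest that 35 arrangements allow). Without wild-type 3 the difference was 0.95 and the groups still did not overlap (exact permutation p = 0.0667, the smallest that the fewer arrangements then allow). The reverse held for 0 members and 1.01% of all genes. Fabp4, the fatty acid binding protein of fat cells and of some endothelium, was at 3.14, 1.68, 2.75 and 1.71 FPKM in deletion kidneys and at 2.31, 6.45 and 6.70 in wild-type kidneys. Wild-type 1 lay within the deletion range and the difference was -0.92 (SE 0.35, limma unadjusted p = 0.0247, adjusted p = 0.999). Without wild-type 3 it was -0.68 and no longer at an unadjusted p under 0.05. With array weights it was -1.20 and called (limma adjusted p = 0.0413), in a fit that called 282 genes. Both genes lie on chromosome 2, as does the deleted interval, Car3 at 25.9 Mb and Fabp4 at 30.7 Mb from it on rn7. So does Elovl6 at 157.2 Mb, with a kidney difference of 0.24 (limma unadjusted p = 0.350, adjusted p = 0.999). In artery the differences were 0.16 for Car3, 0.02 for Fabp4 and 0.90 for Elovl6 (limma unadjusted p = 0.616, 0.942 and 0.0884). These positions were looked up after the values were seen, and the share of all genes on chromosome 2 was not computed.

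The library labelled kidney wild-type 3 set several kidney values. Gpd1 was at 73.4, 58.3, 90.1 and 79.4 FPKM in deletion kidneys and at 86.1, 88.2 and 146 in wild-type kidneys, with a difference of -0.47 and of -0.23 without wild-type 3. Dgat2 was at 13.5, 9.73, 13.2 and 10.9 FPKM in deletion kidneys and at 13.0, 9.31 and 4.10 in wild-type kidneys, with a difference of 0.53 and of 0.09 without wild-type 3. In both genes wild-type 3 stood outside all other kidneys.

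Plin1 was at 0.0501, 0.0292, 0.0571 and 0.0656 FPKM in deletion kidneys and at 0.0295, 0.0326 and 2.04 in wild-type kidneys, while Adipoq was at 2.52, 4.07, 2.62 and 2.39 FPKM in deletion kidneys and at 2.70, 2.23 and 3.504 in wild-type kidneys. Scd lay between 0.272 and 1.09 FPKM in deletion kidneys and between 0.246 and 0.603 in wild-type kidneys, and Pparg between 0.410 and 0.674 in deletion kidneys and between 0.232 and 0.507 in wild-type kidneys. Only Plin1 of these 4 set wild-type 3 far from every other kidney. Acsl1 was at 38.9, 32.3, 39.6 and 34.9 FPKM in deletion kidneys and at 40.2, 38.3 and 49.1 in wild-type kidneys, with a difference of -0.22, and of -0.11 without wild-type 3. Me1 was at 52.6, 37.3, 62.4 and 50.9 FPKM in deletion kidneys and at 56.5, 57.7 and 68.4 in wild-type kidneys, with a difference of -0.28, and of -0.19 without wild-type 3. Wild-type 3 was again the highest kidney for both, and the groups overlapped.

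The kidney values of the lipogenic genes fitted high in artery varied: Dgat2, above, had nearly the same difference in both tissues with all libraries, and an interaction of 0.006. Fasn was at 10.4, 8.55, 10.8 and 8.66 FPKM in deletion kidneys and at 9.83, 9.41 and 7.06 in wild-type kidneys, with a difference of 0.13, and of -0.01 without wild-type 3. Srebf1 was at 7.55, 7.47, 6.997 and 7.56 FPKM in deletion kidneys and at 6.74, 9.71 and 9.27 in wild-type kidneys, with a difference of -0.19, and of -0.12 without wild-type 3. Mlxipl was at 11.999, 13.6, 9.89 and 11.3 FPKM in deletion kidneys and at 13.2, 9.58 and 6.09 in wild-type kidneys, with a difference of 0.32, and of 0.05 without wild-type 3. The groups overlapped in all 3 genes. Cd36 was at 7.72, 7.37, 6.53 and 6.82 FPKM in deletion kidneys and at 6.42, 6.94 and 6.42 in wild-type kidneys, with a difference of 0.10, and of 0.08 without wild-type 3.

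The effect of the deletion in artery was set against that in kidney as an interaction over all 15 libraries. Limma called 0 of 34 members and 0 of 16856 genes (0%), 29 members had a difference above 0, against 49.6% of all genes, and 5 had an unadjusted p under 0.05, 4 higher in artery and 1 lower, where 2.56% of all genes were so higher and 1.83% lower. The artery effect exceeded the kidney effect by 0.59 for Srebf1 (SE 0.18, limma unadjusted p = 0.0058), 0.86 for Gpd1, 0.94 for Pnpla3 and 0.65 for Slc2a4, and was below it by -0.88 for Car3 (limma adjusted p = 0.943 for each of the 5). Fasn had 1.03 (limma unadjusted p = 0.0734). Without kidney wild-type 3 there were 2 members at an unadjusted p under 0.05, and the share of all genes in that fit was not computed.

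Other genes of lipid metabolism outside the 34 were fitted in the same direction in artery. Of 48 listed genes 45 were tested and 0 called; 40 had a difference above 0, against 59.7% of all genes, with a median of 0.24. At an unadjusted p under 0.05, 13 were higher and 0 lower, against 3.72% and 1.52% of all genes. The lysophosphatidate acyltransferase Agpat3 averaged 22.6 FPKM ± 1.97 in deletion and 17.2 ± 2.37 in wild-type arteries, and Acss2, which makes acetyl-CoA from acetate, 22.9 ± 5.79 in deletion and 15.8 ± 2.06 in wild-type arteries. The citrate carrier Slc25a1 averaged 27.7 ± 7.002 in deletion and 16.8 ± 6.09 in wild-type arteries, and pyruvate carboxylase Pc 116 ± 19.6 in deletion and 71.6 ± 25.8 in wild-type arteries (SD, n = 4 each; limma adjusted p = 0.893 for these 4). In kidney 41 of the 48 were tested, 0 were called, 17 were above 0, against 60.2% of all genes, and the median was -0.03. Among the smallest kidney p were those of Cidea (-0.51), a droplet protein and the sole gene at an unadjusted p under 0.05, Klf15 (-0.28) and Aldh1l1 (-0.21).

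Of 19 genes of insulin signalling tested in artery, 0 were called and 0 had an unadjusted p under 0.05. The median difference was 0.01, and 13 of 19 were above 0, a share near the 59.7% of all genes. The smallest p were those of Trib3 (0.50), an inhibitor of Akt, Pdk1 (0.41), a kinase that inhibits pyruvate dehydrogenase, Akt2 (0.22), the insulin-responsive Akt kinase, and Mtor (0.17). In kidney 18 were tested, 0 were called, 15 were above 0, against 60.2% of all genes, and the median was 0.11, with the smallest p for Gsk3b (0.20), Grb10 (0.24), Tbc1d4 (-0.19) and Irs2 (0.23).

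Markers of other cells in the tissue around the artery also varied, and their part in the results above was not tested. The summed FPKM of 7 mesothelial markers was 69.2, 179, 23.2 and 5.32 in deletion 1 to 4 and 36.1, 3.47, 37.3 and 21.3 in wild-type 1 to 4. The mean log2(FPKM + 0.5) of fatty acid synthesis was 8.47, 7.53, 7.54 and 7.14 in deletion 1 to 4 and 7.37, 5.58, 7.47 and 6.52 in wild-type 1 to 4. How the mesothelial sum relates to it was not tested. All 7 mesothelial markers were fitted higher in deletion arteries, against 59.7% of all genes, with a median difference of 0.88. The median was -0.47 over 8 T cell markers and -0.84 over 9 red cell markers, none of them fitted above 0, and -0.24 over 9 macrophage markers, 1 of them above 0. The sum of 8 B cell markers was 4.08 to 96.3 in deletion and 4.33 to 134 in wild-type arteries, that of 8 T cell markers 5.46 to 43.7 in deletion and 9.73 to 81.0 in wild-type arteries, and that of 9 macrophage markers 110 to 201 in deletion and 123 to 239 in wild-type arteries.

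Sums of 10 smooth muscle markers were 1726 to 2876 in deletion and 1417 to 2855 in wild-type arteries, those of 9 endothelial markers 449 to 559 in deletion and 505 to 587 in wild-type arteries, and those of 5 fat cell precursor markers 138 to 223 in deletion and 173 to 209 in wild-type arteries. Sums of 9 red cell markers were 4065 to 36257 in deletion and 3913 to 115051 in wild-type arteries, and those of 8 proximal tubule markers at most 4.22 in deletion and 7.85 in wild-type arteries. Intestinal markers summed to 43.4 in wild-type 1 and to at most 4.89 elsewhere, and acinar markers of the pancreas to 91.4 at most in deletion and 74.7 at most in wild-type arteries. Of 6 brown fat markers 3 were tested in artery, with a median difference of -0.09; Ucp1, the brown fat uncoupling protein, was at 3.16 FPKM in wild-type 2 and at most 0.298 in the other arteries. No gene of these lists was called in either tissue, and without both wild-type 1 and wild-type 4 the median artery difference was 0.30 for the fat cell markers and 0.91 for the fat-making genes.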

How the data were processed

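Total RNA of 8 mesenteric arteries and 7 kidney cortices was sequenced, and the authors deposited a table of FPKM per gene and library; the submitters' processing notes list rn7, HISAT2 2.2.1, Trim Galore 0.6.2 and DESeq2 1.46.0, and do not say which tool made the FPKM. Of 40694 rows, 6337 without an identifier were left out, and 1 column of no sample was not used. Depth is unknown, so no counting interval is given. Log2(FPKM + 0.5) was tested with limma 3.58.1 in R 4.3.3 (eBayes with trend and robust moderation, two-sided) for genes averaging 0.5 FPKM or more, with Benjamini-Hochberg adjustment over all genes and calls at 0.05. Differences are on this log2 scale and understate low genes. Exact permutation tests were two-sided, of group means in FPKM (70 arrangements in artery, 35 in kidney) or of pairings. The scripts were tested on simulated data. Members and lists were chosen with earlier results of these data known. Members given in every library are 9 set by name and, per tissue, the 6 with the smallest p; other lists are given by counts and their 4 smallest p, of which 1 gene is not reported here. Alternatives covered pseudocount, filter, scaling, moderation, weights, replicate block, a marker covariate and left-out libraries. The main fits treat libraries as unpaired. Deviations from group means correlated at -0.34 to 0.32 between same-numbered arteries and at -0.45 to 0.45 between differently numbered ones. So few values cannot settle whether replicate numbers pair libraries. Figures were drawn with matplotlib 3.10.9.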

Additional observations from a re-analysis of the deposited data

Results flagged for a closer look

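In 10 of 102 groups of 4 libraries, the highest or lowest library of a member stood apart from the other 3 by Dixon's test at 95%. The nominal rate of 1 in 20 groups holds for independent, normally distributed values, while these are raw FPKM of members that vary together. The rate over all genes was not computed, so the count of 10 is a description only. In deletion arteries these were Lep at 116 FPKM in deletion 2 (50.5 to 54.7 in the others), and Acly at 242 (63.8 to 74.9) and Elovl6 at 48.6 (12.1 to 16.9) in deletion 1. In wild-type arteries, wild-type 1 stood high in Fabp4 at 838 FPKM (494 to 515 in the others), Lpl at 616 (475 to 495) and Dgat1 at 33.9 (28.8 to 29.3); it is the artery with intestinal transcripts, whose part was not tested. In deletion kidneys, deletion 2 stood high in Adipoq at 4.07 FPKM (2.39 to 2.62) and Lpl at 19.4 (10.9 to 11.99), and deletion 3 stood low in Srebf1 at 6.997 (7.47 to 7.56) and high in Retn at 0.0859 (listed at 0 in the others). With 0 in the other 3, any Retn value above 0 would be flagged.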

How the results depend on the processing

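The count of members called stayed at 0 in artery and in the interaction, and ran from 32 to 33 between tissues, under every alternative run; in kidney it was 1 with array weights (Fabp4) and 0 otherwise. Whether replicate numbers pair libraries was not settled. With the replicate block, members called were 0 in artery, kidney and interaction. Members at an unadjusted p under 0.05 were then 13 in artery, against 6 without the block. For the alternative fits the shares of all genes above 0 or at that p were not computed. Changes in these member counts therefore cannot be told from changes over all genes. Relations with Fasn called at Pearson ran from 4 to 9 leaving out 1 library. With the marker covariate 22 of 34 artery differences were above 0, against 32 without it: those that turned were -0.00487 for Adipoq, -0.0211 for Plin1, -0.15 for Cd36, -0.18 for Cidec, -0.27 for Fabp4, -0.16 for Car3, -0.15 for Plin4, -0.0892 for Pnpla2, -0.00715 for Lpl and -0.0064 for Acsl1. Cd36 and Cidec stood at -0.0474 and -0.0244 with median-of-ratios scaling, -0.0633 and -0.0712 with quantile normalization and -0.0786 and -0.10 with array weights, and leaving out 1 library ran from -0.15 to 0.12 for Cd36, -0.14 to 0.21 for Cidec, -0.15 to 0.13 for Lpin1 and -0.43 to 0.000331 for Angptl4. Lpin1 stood at 6.07e-05 with a pseudocount of 1 and 0.0746 without wild-type 1 and 4. In kidney Adipoq stood at -0.0430 with median-of-ratios scaling and -0.0438 with quantile normalization and ran from -0.12 to 0.18 leaving out 1 library, and Fasn from -0.00992 to 0.22. The kidney difference of means in FPKM was -0.140 for Adipoq with median-of-ratios scaling and ran from -0.299 to 0.440 for Adipoq and -0.0216 to 1.37 for Fasn leaving out 1 library. The cause was not tested. All genes called were 1 in artery with a pseudocount of 0.1, without deletion 3 and without wild-type 2, and in kidney 282 with array weights and 1 in 1 fit over all 4 groups and without wild-type 1. Unknown depth limits what low kidney values can show.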
